A study of Rattus norvegicus with 12 samples.

Results

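The Myc network and ornithine decarboxylase were followed in PC12 cells, a rat adrenal pheochromocytoma line, after addition of PACAP38, the 38-residue form of pituitary adenylate cyclase-activating polypeptide. The members were 8 genes of the 33212 gene names on the array: Myc, Mycn, Mycl, Max, Mxd1, Mxi1, Mnt and Odc1. They were chosen by name, and every gene probe with 1 of these names was kept, which gave 11 probes on 20 spots. Cells grown in medium with fetal bovine and horse serum received PACAP38 at 100 nM, and RNA was taken at 6 time points, namely 5, 10 and 15 min and then 30, 60 and 120 min, beside control RNA of the same times. Values given in time order follow these 6 times. Treated and control RNA from 6 preparations each was pooled and hybridised together on 2 arrays per time point, with PACAP38 RNA in Cy5 on the first and in Cy3 on the second. Both groups were the same unmodified line, and nothing else in the labels separates them.

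Myc, Mycn and Mycl are basic helix-loop-helix leucine zipper proteins that bind DNA at E-boxes as partners of Max and raise transcription of genes for growth and ribosome production. Mxd1, Mxi1 and Mnt also pair with Max, bind the same E-boxes and recruit Sin3 and histone deacetylases, so that they lower transcription there. Odc1 encodes ornithine decarboxylase, the rate-limiting enzyme that makes the polyamine putrescine, and is a textbook Myc target as well as a gene long known to respond to growth factors and cAMP in PC12 cells. PC12 cells are also known for lacking a functional Max protein.

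Of the 8 genes, Odc1 alone was counted as changed at any time point: its PACAP38 signal was about 3 times the control signal at 120 min on both of its probes. Myc, Mycl and Max were not well above background in either RNA on any of the 12 arrays. Mycn was lower with PACAP38 at 60 and 120 min on both arrays but missed the 2-fold limit on 1 array at each of these times, and Mxi1 and Mnt moved in opposite directions on the 2 arrays at most time points. A probe was counted as changed where the fold of PACAP38 over control was at least 2 or at most 0.5 and the spot p of the scanner software was below 0.01, on each of the arrays and with a shared direction. The pools on the first and second array of a time point were identical. Therefore no test between PACAP38 and control exists at a single time point, and the spread between the arrays is technical.

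Probe sequences are shown for the genes on which the results turn: Odc1, which was counted, Mycn and Mxi1, which gave signal, and Max, which gave none. Each is a 60-base probe, written 5′ to 3′ in lower case, at positions of the rn4 build that the scanner files give.
Odc1 probe A_44_P202988: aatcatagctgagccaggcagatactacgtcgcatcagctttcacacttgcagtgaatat
Mycn probe A_44_P290539: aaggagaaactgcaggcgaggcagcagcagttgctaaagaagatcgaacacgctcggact
Mxi1 probe A_44_P334904: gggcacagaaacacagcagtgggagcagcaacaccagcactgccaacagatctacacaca
Max probe A_44_P113842: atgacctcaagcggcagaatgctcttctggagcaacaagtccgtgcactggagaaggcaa
The Odc1 probe lies at chr6:41313685-41313744 and starts at base 1113 of the transcript. The other Odc1 probe, A_43_P14163, lies further along the same transcript, at chr6:41315531-41315590 and base 2140. The Mycn probe lies at chr6:36509194-36509253 in minus orientation. The positions listed for the Mxi1 probe (chr1:259511025-259526483) and the Max probe (chr6:99530072-99531349) span 15459 and 1278 bases, more than the probe's own length.

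The Odc1 promoter is shown because Odc1 was the member that changed. It covers 250 bases before to 50 after the start site (RefSeq, GRCr8 build, chr6:46058415-46058714, plus strand), and capitals mark the letters TGACG, the core of a cAMP response element.
Odc1 promoter: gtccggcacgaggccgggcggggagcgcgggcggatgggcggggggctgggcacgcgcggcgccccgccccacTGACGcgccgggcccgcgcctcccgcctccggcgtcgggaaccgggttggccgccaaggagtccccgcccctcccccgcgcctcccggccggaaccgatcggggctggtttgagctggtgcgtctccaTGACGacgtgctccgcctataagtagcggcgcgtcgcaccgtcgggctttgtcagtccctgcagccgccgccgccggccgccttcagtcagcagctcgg
The matches start 177 and 49 bases before the start site. Either strand of TGACG is found in 21.2% of the 33469 promoters in the table, and among the 6 members with a promoter there (Mycl, Max, Mxd1, Mxi1, Mnt and Odc1) in those of Odc1 and Max. The full element TGACGTCA, which contains TGACG on both strands, is in 1.83% of all promoters and in 0 of these 6. The E-box CACGTG is in 6.42% of all promoters and in those of Max and Mnt. It is not in the window shown for Odc1. The GC box GGGCGG is in 33.1% of all promoters and in those of Mycl, Mxd1, Mxi1, Mnt and Odc1.

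The 12 arrays lay on 3 slides, which held 5 and 10 min, 15 and 30 min, and 60 and 120 min, so that slide and time can be told apart only within these pairs. Between 39.7% and 48.9% of gene spots were well above background for PACAP38 RNA and between 38.3% and 49.6% for control RNA, with 0 saturated spots. Over 15880 probes the log2 ratios of the dye-swapped arrays, turned to the same direction, correlated, in time order, at -0.50, -0.42, -0.05, 0.06, 0.61 and 0.73. Genes are not independent replicates, and these values carry no test. The arrays of a pair thus ran together at 60 and 120 min and did not before. All 8 chromaffin markers on the array (Th, Dbh, Ddc, Slc18a1, Chga, Chgb, Phox2a and the PACAP receptor gene Adcyap1r1) were well above background in both RNAs at every time point. Of 10 markers of other cell types, 6 (Col3a1, S100b, Aif1, Ptprc, Pecam1 and Cdh5) were well above background in neither RNA at any time point, and 0 were counted as changed. The summed signal of these 10 probes lay between 333 and 617 in control RNA and between 342 and 675 in PACAP38 RNA, highest in both at 120 min. The markers that moved most at 120 min were Dbh (3.03 and 1.83) and Th (2.15 and 1.52), both enzymes of catecholamine synthesis, and Phox2a (0.681 and 0.811) among the first, and Pdgfra (0.400 and 0.523), Cd68 (1.97 and 1.91) and Col1a1 (1.32 and 1.01) among the second. None of these passed the rule for a changed probe, and their part in the results was not tested.

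The Myc gene itself was represented by 1 probe, printed on 10 spots per array at chr7:98957687-98957746 (rn4). Of its 120 spots on the 12 arrays, 109 remained after outlier flags, and 0 of these were well above background in PACAP38 or in control RNA. Spot signals had a median of 6.22 in PACAP38 RNA (range 3.50 to 31.9) and of 7.22 in control RNA (range 3.89 to 23.4). The dimmest gene spot well above background on an array lay between 15.8 and 36.0, so the Myc medians were under the reach of every array. At 0 of the 109 spots was the spot p below 0.01. A fold for Myc is not given, because neither RNA was measured above background.

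Mycl, the third activating member, and Max, the shared partner, were likewise well above background in neither RNA on any array. Mycl signals lay between 7.77 and 26.9 and Max signals between 3.79 and 9.43 over all arrays and both RNAs. No level of Max was thus measured in these cells with this probe, in control or in treated RNA. This says that the signal was too low for this probe, not that the transcript was absent.

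Mycn was the activating member that gave a signal. Its brighter probe, A_44_P290539, was well above background in control RNA on 12 of 12 arrays and in PACAP38 RNA on 10 of 12. On the arrays with PACAP38 in Cy5, its PACAP38 signals in time order were 44.7, 38.5, 36.8, 42.6, 26.9 and 44.6, against control signals of 36.5, 36.6, 38.2, 35.0, 35.6 and 86.0. With PACAP38 in Cy3 the PACAP38 signals were 27.3, 41.5, 46.1, 40.6, 15.6 and 24.8, against 37.4, 26.8, 37.0, 37.8, 47.2 and 62.7 in the control. Up to 30 min the PACAP38 and control signals overlapped, and at 60 and 120 min the PACAP38 signal was below its control on both arrays. The PACAP38 RNA was not well above background on the second array at either of these times.

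Up to 30 min the Mycn folds in time order were 1.23, 1.05, 0.963 and 1.22 on the first array and 0.728, 1.55, 1.25 and 1.08 on the second. At 60 min they were 0.756 and 0.332, a mean fold of 0.501 with an SD of 0.84 on the log2 scale over the 2 arrays, with spot p of 0.26 and 4.1e-05. At 120 min they were 0.518 and 0.396, a mean log2 ratio of -1.14 ± 0.28, with spot p of 0.0058 and 0.00088. The first of these just missed the limit of 0.5, so Mycn was not counted as lower. With a limit of 1.5-fold it was counted at 120 min, as were 3.85% of all 40997 probes in that direction. With the normexp background correction, which adds an offset of 50 before the log, the log2 ratio at 120 min was -0.14 in place of -1.14. Mycn's second probe, A_44_P115142, at signals of 3.81 to 10.8, was well above background in neither RNA on any array.

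**Figure D1:**
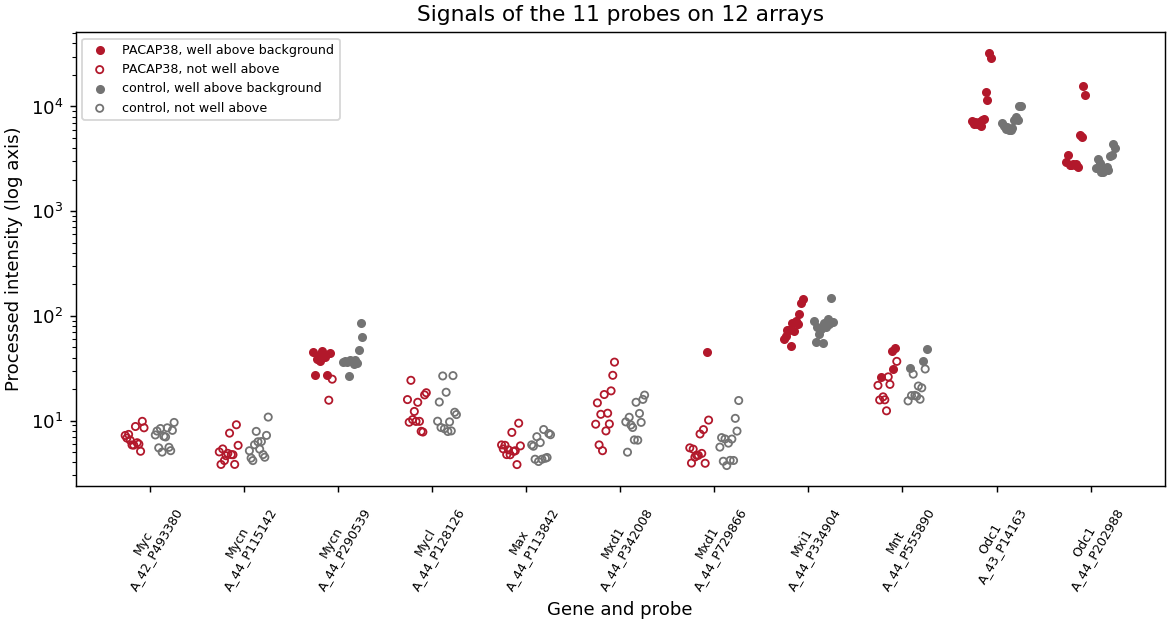
Processed intensity (log axis) of the 11 probes of the 8 genes on 12 arrays, with PACAP38 RNA in red and control RNA in grey, arrays ordered by time from left to right within a column. Filled points were well above background: both Odc1 probes, Mxi1 and the brighter Mycn probe carry nearly all of them, and Myc, Mycl and Max carry none.

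Of the repressing partners, Mxd1 was close to undetected. Its brighter probe, A_44_P342008, was well above background in neither RNA on any array, at signals between 4.98 and 36.1. The other, A_44_P729866, was well above background in PACAP38 RNA on 1 array only, at 120 min with PACAP38 in Cy5. There its ratio was 5.66, against 0.650 on the dye-swapped array. Control RNA was not well above background on either array, so neither ratio is a measured fold. No mean fold is given for Mxd1.

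Mxi1 was well above background in both RNAs on all 12 arrays, at signals between 51.7 and 148. On the arrays with PACAP38 in Cy5 its folds were 0.666, 0.948, 0.692, 0.849, 0.889 and 0.890 from 5 to 120 min. With PACAP38 in Cy3 they were 1.12, 1.08, 1.54, 1.15, 1.25 and 1.68. The first array was thus below 1 and the second above 1 at all 6 time points, so its direction changed with the dye throughout. The mean folds over both dyes lay between 0.866 at 5 min and 1.22 at 120 min. Mxi1 was counted at 0 of 6 time points.

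Mnt lay at the edge of detection, well above background in PACAP38 RNA on 4 of 12 arrays and in control RNA on 3 of 12. At 60 min, where PACAP38 RNA was well above background on both arrays and control RNA on 1, its signals were 46.3 against 20.5 and 30.8 against 36.9. The folds were 2.26 and 0.835, so the arrays disagreed in direction. At 120 min, with 1 array well above background in each RNA, they were 1.58 and 0.764. At 5 min, with control RNA well above background on 1 array and PACAP38 RNA on neither, the folds of 1.41 and 0.496 pointed in opposite directions, and the bound for a lower level was at least 1.06-fold. At 10, 15 and 30 min no fold is given. Mnt was counted at 0 of 6 time points.

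Over the 66 pairs of folds of the 11 probes, 39 pointed in opposite directions on the 2 arrays. This count takes in 5 probes that were never well above background, whose direction carries no information. It is therefore not comparable with the shares that follow. Among probes well above background in both RNAs on all 12 arrays, Mxi1 was opposite at 6 time points, the second Odc1 probe at 1 and the brighter at 0. Among all probes well above background in both RNAs on both arrays, the share in opposite directions was, in time order, 64.1%, 63.9%, 46.8%, 61.7%, 38.9% and 25.9%. The brighter Odc1 probe was the only one of the 11 to point the same way on both arrays at all 6 time points, always with PACAP38 higher.

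**Figure D2:**
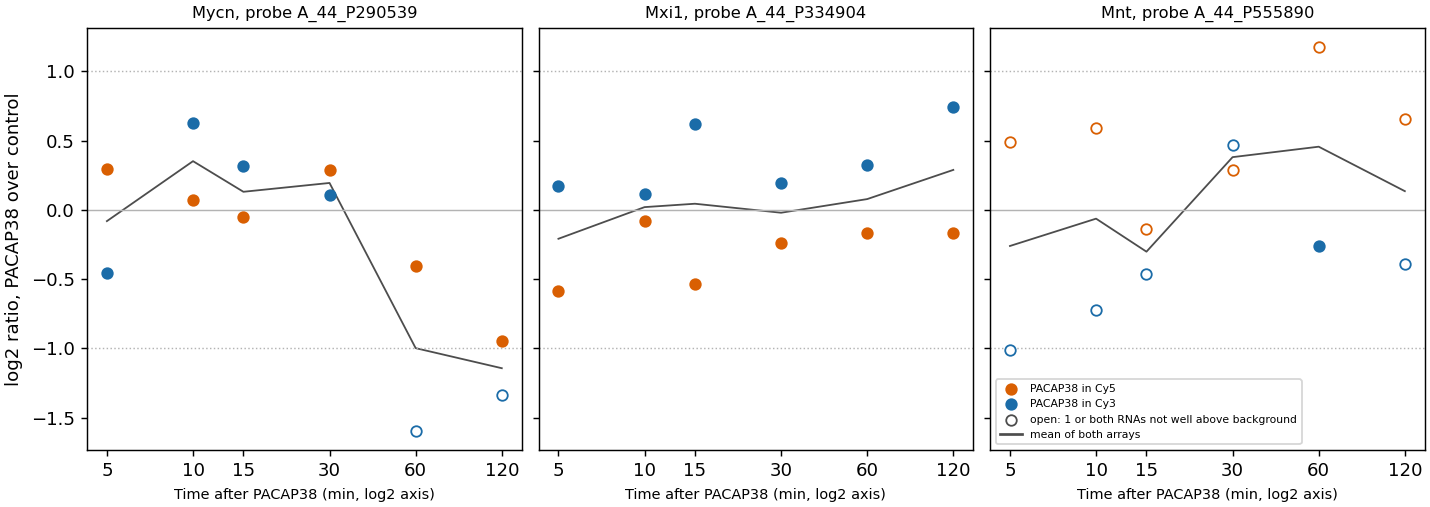
log2 ratio of PACAP38 over control against time (log2 axis) for the reported probes of Mycn, Mxi1 and Mnt, 1 point per array, orange with PACAP38 in Cy5 and blue with PACAP38 in Cy3. Open points mark arrays where 1 or both RNAs were not well above background, dotted lines mark 2-fold, and the line joins the means of both arrays. The Mycn line drops after 30 min, to -1.14 at 120 min, and the Mxi1 colours keep to opposite sides of 0 throughout.

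Odc1 was well above background in both RNAs on all 12 arrays with both probes. With the brighter probe and PACAP38 in Cy5, the PACAP38 signals in time order were 7216, 7093, 7068, 7496, 13726 and 32508, against control signals of 6901, 6072, 6014, 6249, 8019 and 10055. With PACAP38 in Cy3 the PACAP38 signals were 6787, 6819, 6569, 7621, 11469 and 29055, against 6568, 6353, 5971, 7380, 7486 and 10065. Treated and control signals lay close together up to 30 min and stood apart on both arrays from 60 min on.

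The Odc1 folds of the brighter probe in time order were 1.05, 1.17, 1.18, 1.20, 1.71 and 3.23 on the first array and 1.03, 1.07, 1.10, 1.03, 1.53 and 2.89 on the second. The second probe, nearer the start of the transcript, gave 1.14, 0.956, 1.19, 1.07, 1.60 and 3.61 on the first array and 1.08, 1.16, 1.06, 1.07, 1.47 and 3.23 on the second. Both probes thus stayed within 1.20-fold up to 30 min, were near 1.5-fold at 60 min and near 3-fold at 120 min. The mean log2 ratio at 120 min was 1.61 ± 0.12 (SD of the 2 arrays) for the brighter and 1.77 ± 0.11 for the second probe. The probes differed from each other by about as much as the arrays did.

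Both Odc1 probes were counted as higher at 120 min, with spot p between 3.3e-12 and 6.6e-10. Of all 40997 probes, 1.95% were counted as higher and 1.53% as lower at that time, 3.48% in either direction. No member was counted at an earlier time, when the share of all probes counted was, in time order, 0%, 0.0659%, 0.117%, 0.351% and 1.25%. With a limit of 1.5-fold the brighter Odc1 probe was counted as higher at 60 min too, as were 1.41% of all probes, against 1.11% as lower. The second probe had the same direction but a fold of 1.47 on 1 array. Among 15720 probes well above background in both RNAs on both arrays at 120 min, 320 had a higher mean log2 ratio than the brighter Odc1 probe and 261 a higher one than the second.

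The rise lay in the treated pools. After normalization between arrays, the log2 level of the brighter probe in control RNA stayed between 12.72 and 12.90 over the 6 time points (SD 0.06, n = 6 pools), while in PACAP38 RNA it was 12.90, 12.88, 12.96, 13.07, 13.50 and 14.41 in time order. The second probe stayed between 11.50 and 11.60 in control RNA (SD 0.05, n = 6 pools) and reached 12.24 at 60 min and 13.30 at 120 min in PACAP38 RNA. Before that normalization the control signals of both probes were also higher at 60 and 120 min, the times on the third slide. Within the third slide alone, the log2 ratio rose by 0.92 from 60 to 120 min for the brighter probe (0.92 and 0.91 on the separate arrays) and by 1.15 for the second (1.17 and 1.13). Within the first and second slides the change between time points was 0.11 and -0.03 for the brighter and -0.07 and -0.07 for the second probe.

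**Figure D3:**
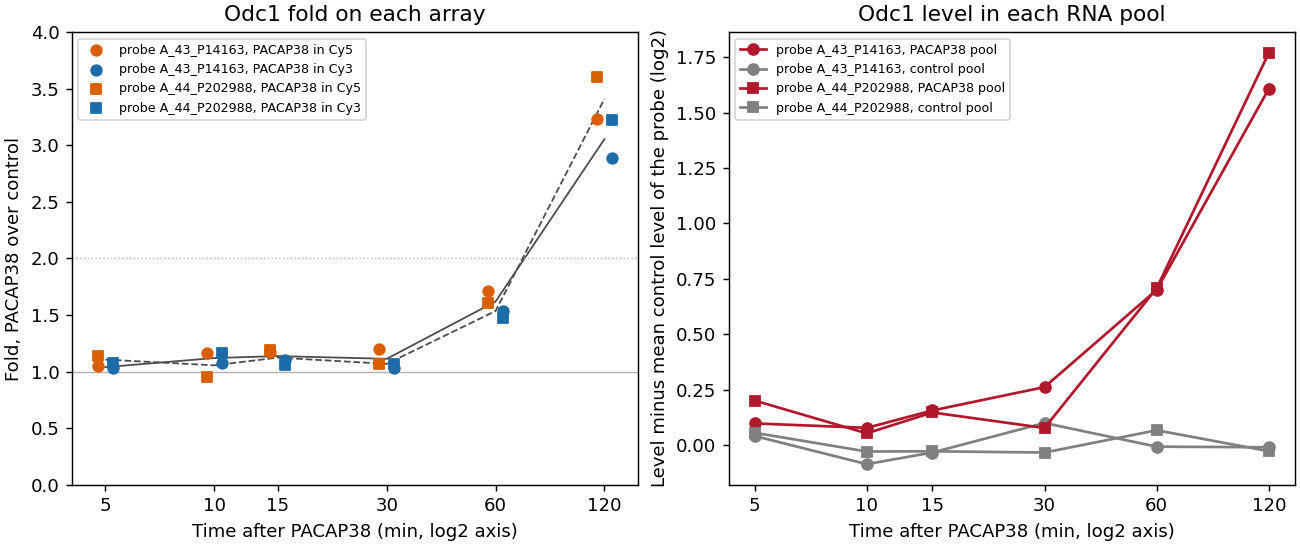
Left, fold of PACAP38 over control of the Odc1 probes on each array against time (log2 axis), circles and full line for A_43_P14163, squares and dashed line for A_44_P202988, orange with PACAP38 in Cy5, blue with PACAP38 in Cy3, points set slightly apart sideways for sight, lines joining the geometric means and the dotted line marking 2-fold. Right, log2 level in each RNA pool minus the mean control level of the same probe. Folds stay near 1 up to 30 min, reach 1.47 to 1.71 at 60 min and 2.89 to 3.61 at 120 min, while the control pools stay level.

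With 1 dye-swapped pair at each time point, a trend of the dye-averaged log2 ratio on log2 minutes was fitted across 20265 probes with limma, with Benjamini-Hochberg adjustment over all of them. Odc1 had slopes per doubling of time of 0.30 (SE 0.08, adjusted p = 0.089) and 0.31 (SE 0.10, adjusted p = 0.11), and Mycn of -0.30 (SE 0.10, adjusted p = 0.12). Mxi1 had 0.08 (SE 0.03, adjusted p = 0.14) and Mnt 0.13 (SE 0.06, adjusted p = 0.19). Thus 0 of the 5 member probes tested passed, with 0.725% of all probes passing, with an unadjusted p under 0.05 at 4 of the 5 and at 5817 of all 20265 probes. The other 6 member probes did not enter the fit, since they were too dim.

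With time in minutes in place of log2 minutes, both Odc1 probes (adjusted p = 0.0028 and 0.0041) and Mycn (adjusted p = 0.027) passed in limma. In that fit 26.3% of all probes passed, and the scale of time thus decided the call. With slide as a block the Mycn slope turned to 0.12 (adjusted p = 0.91), while those of Odc1 were 0.33 and 0.34 (adjusted p = 0.89 for both). The mean log2 ratio over the 6 time points was 0.48 (SE 0.21) and 0.48 (SE 0.23) for Odc1, -0.26 (SE 0.23) for Mycn, 0.03 (SE 0.07) for Mxi1 and 0.06 (SE 0.12) for Mnt. In limma 0 member probes passed for the mean, as did 0% of all probes, with 0 of the 5 members and 1851 of all 20265 probes at an unadjusted p under 0.05.

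The genes around Odc1 in polyamine metabolism were read from a list of 21, of which 18 were on the array. At 120 min 3 of the 18 were counted as higher and 0 as lower, beside the 1.95% and 1.53% of all probes. At 60 min 1 was higher and 0 were lower, with 1.25% of all probes counted in either direction. Azin1, the antizyme inhibitor that frees ornithine decarboxylase from antizyme, was counted at both times. Its reported probe had folds of 2.64 and 2.44 at the earlier and 3.65 and 4.02 at the later time, and its other probe 3.11 and 3.08, then 5.49 and 6.12. Azin1 was thus past 2-fold at 60 min, when both Odc1 probes were not, but the difference between the genes was not tested.

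Arg2, the mitochondrial arginase that makes ornithine, had folds of 4.10 and 3.08 at 120 min, with control RNA well above background on 1 array. Smox, spermine oxidase, had folds of 7.80 and 2.34 at 120 min, with control RNA again well above background on 1 array. Its second probe was not counted (1.94 and 3.08). The arrays of Smox differed more than those of Odc1, and its size is accordingly loose.

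The other steps of polyamine synthesis stayed near 1 at 120 min. The mean folds were 1.00 for Amd1 (S-adenosylmethionine decarboxylase), 1.17 for Srm (spermidine synthase) and 0.954 for Sms (spermine synthase). Azin2 (2.04 and 1.39) and Oaz2 (1.47 and 1.22), an antizyme that sends ornithine decarboxylase to the proteasome, were not counted. Of the 18 genes, 12 were well above background in both RNAs on both arrays, and their median log2 ratio at 120 min was 0.21, against -0.04 over all 12484 such genes. Sat1, Oaz3 and Arg1 were well above background in neither RNA.

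Genes that Myc is known to raise were read from a list of 33, all on the array and mostly for ribosome production, translation and nucleotide synthesis. At 120 min 1 of the 33 was counted as higher and 0 as lower, beside 1.95% and 1.53% of all probes. At 60 min 0 were higher and 1 was lower, beside 1.25% of all probes in either direction. Eif4e, the cap-binding translation factor, had folds of 2.31 and 2.39 at 120 min, but its 2 other probes had mean folds of 1.53 and 1.40 and were not counted. Rrs1, a ribosome assembly factor, had folds of 0.334 and 0.382 at 60 min, then of 0.514 and 0.362. Polr1b, a subunit of RNA polymerase I, was not counted, with 0.515 and 0.354 at 120 min. The median log2 ratio of the 29 measured genes at 120 min was -0.01, with 14 of 29 above 0, against -0.04 over all genes measured.

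Of 6 genes that Myc is known to lower, 2 were counted as higher at 120 min and 0 as lower, beside 1.95% and 1.53% of all probes. Cdkn1a, the cell cycle inhibitor p21, had folds of 3.22 and 2.62, and its other probe was counted too (3.69 and 2.13). Ndrg1, a stress and differentiation gene, had 2.29 and 2.30, while its other probe, with 7.46 and 1.71, was not counted. Gadd45a, a growth arrest gene, had 1.87 and 2.58 and was not counted. The median log2 ratio of the 5 measured genes was 1.14.

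**Figure D4:**
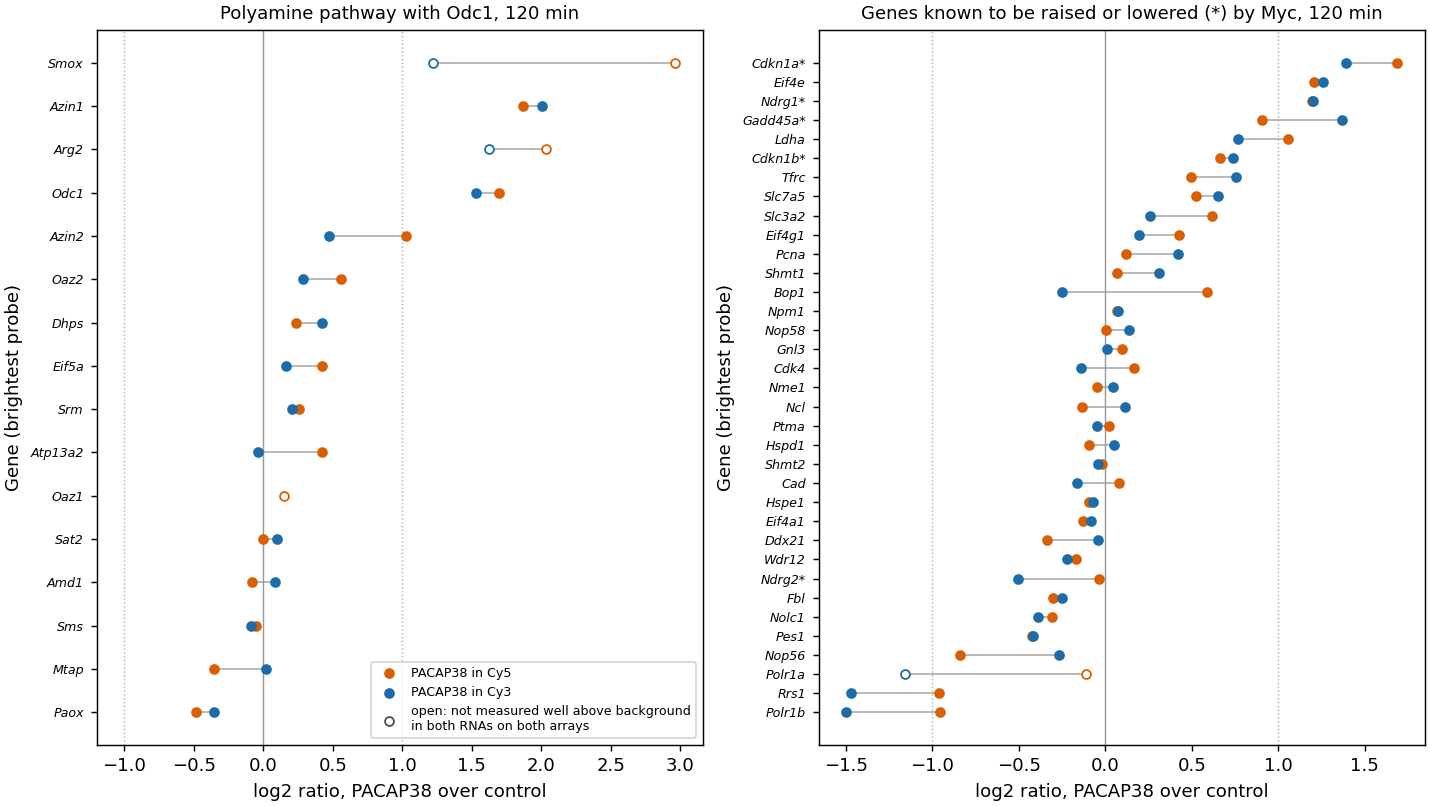
log2 ratio of PACAP38 over control at 120 min (horizontal axis) for the brightest probe of each gene, 1 point per array, orange with PACAP38 in Cy5 and blue with PACAP38 in Cy3, dotted lines at 2-fold. Left, the polyamine pathway with Odc1; right, genes known to be raised or, with an asterisk, lowered by Myc; open points were not well above background in both RNAs on both arrays, and Oaz1 was measured on 1 array. Odc1 stands with Smox, Azin1 and Arg2 to the right of 2-fold, and the genes known to be raised by Myc spread about 0.

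The wider network and its regulators held a few changes at 120 min, when 1.53% of all probes were counted as lower. Of 5 further genes of the Max and Mlx network on the array, 1 was counted as lower: Mxd3, a Mxd family repressor of dividing cells, had folds of 0.378 and 0.278, after 0.632 and 0.619 at 60 min. Mxd4 (0.879 and 0.882) and Mlx (1.00 and 1.20) were not counted, and Mlxip and Mlxipl were well above background in neither RNA. Of 15 cofactors, Sin3a, the corepressor that Mxd proteins recruit, was counted as lower (0.389 and 0.429), and Ncor1 (0.681 and 0.793) and Hdac2 (0.754 and 0.924) were not. Of 10 genes for Myc turnover, 2 were lower: Aurka, a mitotic kinase that stabilises N-Myc protein (0.405 and 0.419), and Skp2, a ubiquitin ligase subunit that acts on Myc (0.436 and 0.457). The signal of this Skp2 probe was uneven between arrays of the same pools, with control signals of 151 and 1566 at 120 min. The second Skp2 probe was not counted, with control RNA well above background on both arrays and PACAP38 RNA on neither, a level at least 1.57-fold lower. Ppp2ca, a phosphatase subunit, had 1.40 and 1.34.

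By a fixed measure of likeness, the root mean square difference of the dye-averaged log2 ratio over the 6 time points among 8030 named genes, the genes closest to the brighter Odc1 probe were Pip5k1a (0.07), Mon2 (0.08) and Pdxk (0.09). Pip5k1a encodes a phosphatidylinositol phosphate kinase, Mon2 an endosome-to-Golgi trafficking factor and Pdxk pyridoxal kinase. Their mean folds at 60 and 120 min were 1.61 and 2.90 for Pip5k1a, 1.51 and 3.15 for Mon2, and 1.63 and 3.48 for Pdxk. For the second Odc1 probe the closest were Mon2 (0.05), Pdxk (0.08) and Tnfrsf22 (0.10), so Mon2 and Pdxk were near both. All of these values come from the same pools and arrays as those of Odc1.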

How the data were processed

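Agilent 4 × 44K rat arrays in 2 colours held pooled RNA (n = 6) of PACAP38-treated and control PC12 cells. The deposited intensities were background-subtracted and LOWESS dye-normalized by the authors with Agilent Feature Extraction (12.0.3.1 per the file headers, 11.0.1.1 per the labels), which also gave the deposited p-value of each spot. The deposited log10 ratios of Cy5 over Cy3 equal those of the processed intensities and were an alternative.

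Ratios were turned to PACAP38 over control by the dyes in the labels, control and outlier spots were dropped, and spots of a probe were averaged. A probe was well above background where at least 0.5 of its spots were. Bounds used levels of the processed intensities after loess and Aquantile, with no offset, against the lowest level well above background on each array. limma 3.58.1 (R 4.3.3) fitted the time trend and the mean over probes well above background in at least 1 RNA on both arrays of a time point, with 1 value per time point, and was tested on simulated data. The number of arrays limits the precision; where cultures were separate is not stated, so p-values may measure technical spread.

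Members are all named, by their brightest probe, with the others beside it. Genes of other lists are named where counted at any time point or among the 3 largest changes of their list at 120 min, and the 3 genes most like each counted member probe are named. RefSeq matched 19268 of 41012 probes, and 1599 names were updated from it. A marker of the lists is not reported here. Members and lists were chosen with earlier results of these data known.

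Alternatives were 1.5-fold, other p limits, normexp background correction (offset 50) with loess or median centring, the deposited table, dim-probe filters, slide as a block, single arrays, left-out time points and time in minutes.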

Additional observations from a re-analysis of the deposited data

Results flagged for a closer look

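Mycn stood out because both arrays were above 1 at 10 and 30 min and both were below 1 at 60 and 120 min. Its mean folds of PACAP38 over control at these 4 times were 1.28, 1.14, 0.501 and 0.453. The difference between single time points was not tested. The limma trend over time had an adjusted p of 0.12, and between adjusted p of 0.027 and 0.91 over the 14 alternatives. PACAP38 RNA was well above background on 1 of 2 arrays at 60 and at 120 min, and the later times lay on a slide of their own, so slide and time cannot be told apart for this change.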

How the results depend on the processing

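The count of calls, each a member probe at a time point, was 2 over the 6 time points and stayed at 2 or 3 with spot p under 0.05 and the filter on dim probes, and with the geometric mean fold, normexp with loess and the deposited table, each counted without a p limit. It was 4 with 1.5-fold, which also took in the brighter Odc1 probe at 60 min and Mycn at 120 min, and 1 with normexp and median centring, also without a p limit, where the brighter Odc1 probe was lost. With 1 array alone it was 4 in either case. With PACAP38 in Cy5 alone Mnt at 60 min and Mxd1 at 120 min were added, and with PACAP38 in Cy3 alone Mycn at 60 and 120 min. Under normexp with median centring the Odc1 log2 ratios at 120 min were 1.36 and 1.47 in place of 1.61 and 1.77. In the 8 other settings of this count both Odc1 probes were counted as higher at 120 min.

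The count of members passing for the slope was 0, and 3 with time in minutes. The mean over time had 0 members in all 14 alternatives. The Mycn slope turned to 0.12 with slide as a block. The mean of Mxi1 turned to -0.017 without 120 min, and was -0.29 with PACAP38 in Cy5 alone and 0.36 in Cy3 alone. The mean of Mnt turned to -0.0015 with normexp and median centring, -0.0064 without 30 min, -0.022 without 60 min, and was 0.51 with PACAP38 in Cy5 alone and -0.40 in Cy3 alone. In these cases the cause was not tested. Of 156 single log2 ratios under an alternative, 16 moved by more than the SD of the arrays. By this measure only the normexp settings could move a ratio. A single array always lies within that SD of the mean, and the deposited ratios equal the main ones. The probes had 1 spot each, so a median over spots changed nothing. The share of the 156 is therefore no measure of stability. Signals near background limit Mycn, Mnt and Mxd1, and leave Myc, Mycl and Max unmeasured.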
